A study of Mus musculus with 10 samples.

Results

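Autophagy delivers cytoplasm, damaged organelles and protein aggregates to the lysosome inside a double-membraned vesicle, the autophagosome. The 38 genes described here encode the machinery that starts, builds, loads and fuses that vesicle, and they were taken as a fixed list of names from the array's gene symbol column, with the feature of highest mean kept where a gene had several. All 38 were found among the 30890 genes tested, 35 of them with 1 feature and 3 with several. In the kidney, autophagy in tubule cells and podocytes is known as a protective process under stress, and cyclosporin A (CsA), a calcineurin inhibitor used as an immunosuppressant, is known to load tubule cells with vacuoles.

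Kidney RNA was profiled in 10 samples on 1 array each, 5 from mice given CsA and 5 from mice given its solvent cremophore, called vehicle here. CsA was injected under the skin at 60 mg/kg per day for 7 days, and vehicle in a similar volume. All animals were of C57BL/6 background, aged 10 to 12 weeks, and on chow with 0.05% sodium, and both groups carried the same inducible Pax8-rtTA-dependent Vhl knockout, which acts in Pax8-expressing tubule cells once doxycycline is given. The labels do not say whether doxycycline was given to these animals, and Vhl differed by 0.00 ± 0.09 log2 units (SE) between the groups (limma adjusted p = 0.993). The labels do not state that each sample came from a separate animal, so p-values measure the spread between these samples. The series asked which pathways precede the renal injury of longer CsA dosing.

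The machinery works in steps. The ULK1 kinase complex receives nutrient signals from mTORC1 and AMPK and starts the process, and the Beclin 1 complex then makes the phosphoinositide that marks the forming membrane. The ATG9, ATG2 and WIPI proteins bring lipid, and 2 ubiquitin-like conjugation systems attach ATG12 to ATG5 and lipid to the ATG8 proteins (LC3 and GABARAP). Cargo receptors such as p62 bind both ATG8 proteins and cargo, and tethers and SNARE proteins join the closed vesicle to the lysosome.

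Values are log2 expression values on the scale of the array, on which 1 unit is a doubling. Array medians lay between 5.14 and 5.21 and correlations between arrays between 0.976 and 0.989. CsA replicates 1 and 2 carried female RNA: Xist measured 9.21 and 9.15 there, and the average of the Y-linked genes 3.90 and 4.03. The remaining 8 arrays had Xist no higher than 4.82 and a Y-linked average of 6.91 or more. The labels give no sex. Results past the threshold, and the other autophagy genes, are therefore also given without CsA replicates 1 and 2, as the males-only value, from 3 CsA and 5 vehicle arrays. Kidney markers were bright in both groups, with the mean of 5 proximal tubule genes between 11.43 and 11.48 in CsA and between 11.36 and 11.41 in vehicle arrays. Macrophage markers moved with the treatment: 8 of 10 rose, and their mean lay between 7.11 and 7.45 in CsA and between 6.51 and 6.78 in vehicle arrays. Of 7 tubular injury markers 5 rose, with means between 7.24 and 8.05 in CsA and between 6.51 and 6.78 in vehicle arrays. Single markers of other cells also moved: the adipocyte gene Retn was 0.82 higher and the collecting duct gene Atp6v1b1 0.47 higher over all arrays (limma adjusted p = 0.0139 and 0.00374), and both also rose in males only. In males only the adipocyte gene Cfd was 0.68 higher, the globin gene Hbb-bt 1.21 higher and the distal tubule gene Slc12a3 fell by 0.43, all past the threshold there and not over all arrays. Most markers of these cells did not pass. Over all arrays 1 of 7 adipocyte and 1 of 4 collecting duct markers passed. In males only 2 of 7 adipocyte, 1 of 4 collecting duct, 1 of 3 erythroid and 1 of 3 thick ascending limb and distal tubule markers passed. The part of these markers in the autophagy results was not tested. In whole kidney, fewer cells of a type and less RNA per cell cannot be told apart.

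Most autophagy genes did not pass the test, and the genes that passed were mainly lower in CsA kidneys. Of the 38 genes, 5 fell and 1 rose at an adjusted p under 0.05 in limma over all 30890 genes. These 6 genes are 15.8% of the list, against 6.49% of all genes called, 3.54% lower and 2.95% higher. All 38 genes lay above the median of mean signal, the dimmest (Optn) at the 65.5th percentile, and among the 15445 genes above that median 11.9% were called, 6.59% lower and 5.30% higher. The falls were Atg4a (1.35-fold), Atg10 (1.34-fold), Becn1 (1.25-fold), Atg12 (1.23-fold) and Rb1cc1 (1.21-fold). The gene that rose was Atg16l1 (1.51-fold), through 1 of its 2 features. In males only, Atg4a and Atg10 fell and Atg16l1 rose, and the other 3 missed the threshold, against 3.17% of all genes called (1.64% lower, 1.53% higher) and 5.70% of genes above the median signal. At an unadjusted p under 0.05, 12 of the 38 genes (31.6%) passed over all arrays, against 20.8% of all genes. The share of genes above the median signal was not computed for this count, so it cannot be read as an excess among genes as bright. The median difference, CsA minus vehicle, over the 38 genes was -0.05 log2 units, with 26 negative and 12 positive differences, and the median over all genes was 0.01. In 10 of the 38 genes (26.3%) the groups did not overlap, against 9.09% of all genes and 16.6% of genes above the median signal. When only the genes above that median were tested, 9 of the 38 (23.7%) were called, against 21.3% of all genes so tested.

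**Figure D1:**
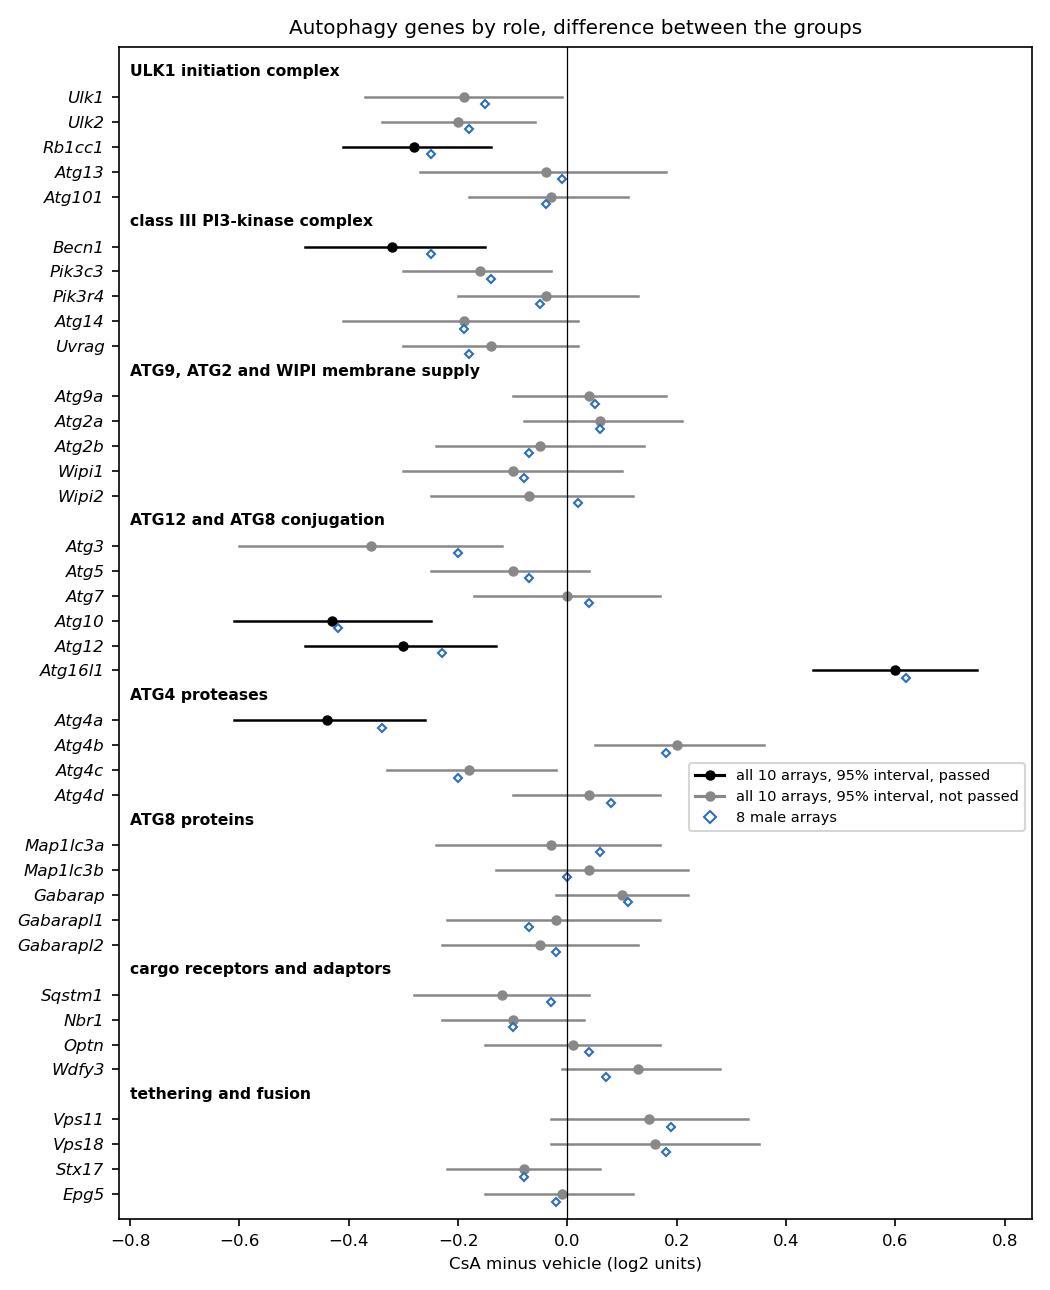
CsA minus vehicle difference in log2 units (horizontal axis) for each of the 38 autophagy genes, grouped by role. Circles with bars are the estimate and 95% interval over all 10 arrays, black where the adjusted p is under 0.05 and grey otherwise, and open diamonds are the males-only estimate. The 5 black intervals left of 0 are Rb1cc1, Becn1, Atg10, Atg12 and Atg4a, and Atg16l1 lies at 0.60.

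Leaving out any single array lowered the count of falls from 5 to between 2 and 4. The calls over all genes dropped as well, from 2004 to between 1134 and 1928, so the drop was not particular to these genes. The count of falls was 3 without CsA replicate 1 and 2 without CsA replicate 2 or 3. It was 2 without vehicle replicate 1 or 2, 3 without vehicle replicate 3 or 4, and 4 without any other array. Atg4a, Atg10 and Atg16l1 passed in all 10 leave-outs.

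The genes of the ULK1 initiation complex had negative differences in all 5 cases, and 1 of the 5 passed. Rb1cc1 encodes FIP200, the scaffold that holds the complex together. It measured 7.93, 7.80, 7.88, 7.93 and 8.0 in CsA replicates 1 to 5 and 8.18, 8.24, 8.13, 8.27 and 8.11 in vehicle replicates 1 to 5. Every CsA array lay below every vehicle array. Rb1cc1 averaged 7.91 ± 0.08 under CsA against 8.18 ± 0.07 under vehicle (SD, n = 5 each), a difference of -0.28 ± 0.06 (SE; limma adjusted p = 0.0255). In males only the difference was -0.25 (limma adjusted p = 0.0953). Rb1cc1 also missed the threshold without CsA replicate 2 or 3 (limma adjusted p = 0.0604 and 0.0548), and when vehicle replicate 1, 2 or 4 was left out (0.0547, 0.0679 and 0.0664).

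Ulk1, the kinase that starts autophagy, measured 8.11, 7.85, 7.97, 8.04 and 8.17 in CsA and 8.42, 8.23, 8.12, 8.20 and 8.10 in vehicle replicates 1 to 5. The groups overlapped, and its difference of -0.19 ± 0.08 (SE, 95% interval -0.37 to -0.01) missed the threshold (limma adjusted p = 0.226; -0.15 and 0.4 in males only). Ulk2, its close relative, differed by -0.20 ± 0.07 with no overlap between the groups (limma adjusted p = 0.0982, and 0.206 in males only). Atg13 and Atg101, the regulatory subunits, differed by -0.04 and -0.03, with intervals from -0.27 to 0.18 and from -0.18 to 0.11, and by -0.01 and -0.04 in males only. The mean of the 5 ULK1 complex genes lay between 7.62 and 7.85 in CsA and between 7.86 and 7.94 in vehicle arrays.

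The class III phosphatidylinositol 3-kinase complex also had 5 negative differences, of which 1 passed. Becn1 encodes Beclin 1, the subunit that binds BCL2 and gates the complex. It measured 7.59, 7.71, 7.78, 7.90 and 7.74 in CsA and 8.07, 8.16, 7.99, 7.91 and 8.17 in vehicle replicates 1 to 5. The groups did not overlap, but CsA replicate 4 and vehicle replicate 4 lay 0.01 apart as printed. The difference was -0.32 ± 0.08 (SE; limma adjusted p = 0.0309), and -0.25 in males only (limma adjusted p = 0.134). With the arrays quantile normalized again, Becn1 missed the threshold (limma adjusted p = 0.0533). Becn1 still passed when replicate 4 of either group was left out and missed the threshold in the other 8 leave-outs, with an adjusted p of at most 0.0799.

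The other subunits differed less or varied more. Pik3c3, the catalytic subunit VPS34, differed by -0.16 ± 0.06 without overlap between the groups and without passing (limma adjusted p = 0.159; -0.14 and 0.285 in males only). Atg14, which directs the complex to autophagosome formation, measured 6.52, 5.98, 6.08, 6.38 and 6.29 in CsA and between 6.35 and 6.49 in vehicle arrays. CsA replicate 1 was above all vehicle arrays and CsA replicates 2 and 3 were far below them, and the difference of -0.19 ± 0.10 did not pass (limma adjusted p = 0.295; -0.19 and 0.252 in males only). Uvrag, the subunit of the complex's endosomal form, differed by -0.14 and Pik3r4, the regulatory subunit VPS15, by -0.04, and by -0.18 and -0.05 in males only, none past the threshold. The difference between Becn1 and Atg14 within an array was 1.49 ± 0.27 in CsA and 1.62 ± 0.10 in vehicle arrays (SD, n = 5 each), and the groups overlapped. The mean of the 5 PI3-kinase complex genes lay between 7.30 and 7.51 in CsA and between 7.55 and 7.61 in vehicle arrays. In the other 6 role groups the array means of CsA and vehicle overlapped, for example 7.22 to 7.40 against 7.35 to 7.48 for the ATG4 proteases. For conjugation they were 7.45 to 7.66 against 7.65 to 7.71, with Atg16l1 read from its brighter feature, which rose by 0.60. That overlap depends on this feature. With the dimmer Atg16l1 feature in its place, every CsA mean of the conjugation genes lay below every vehicle mean.

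**Figure D2:**
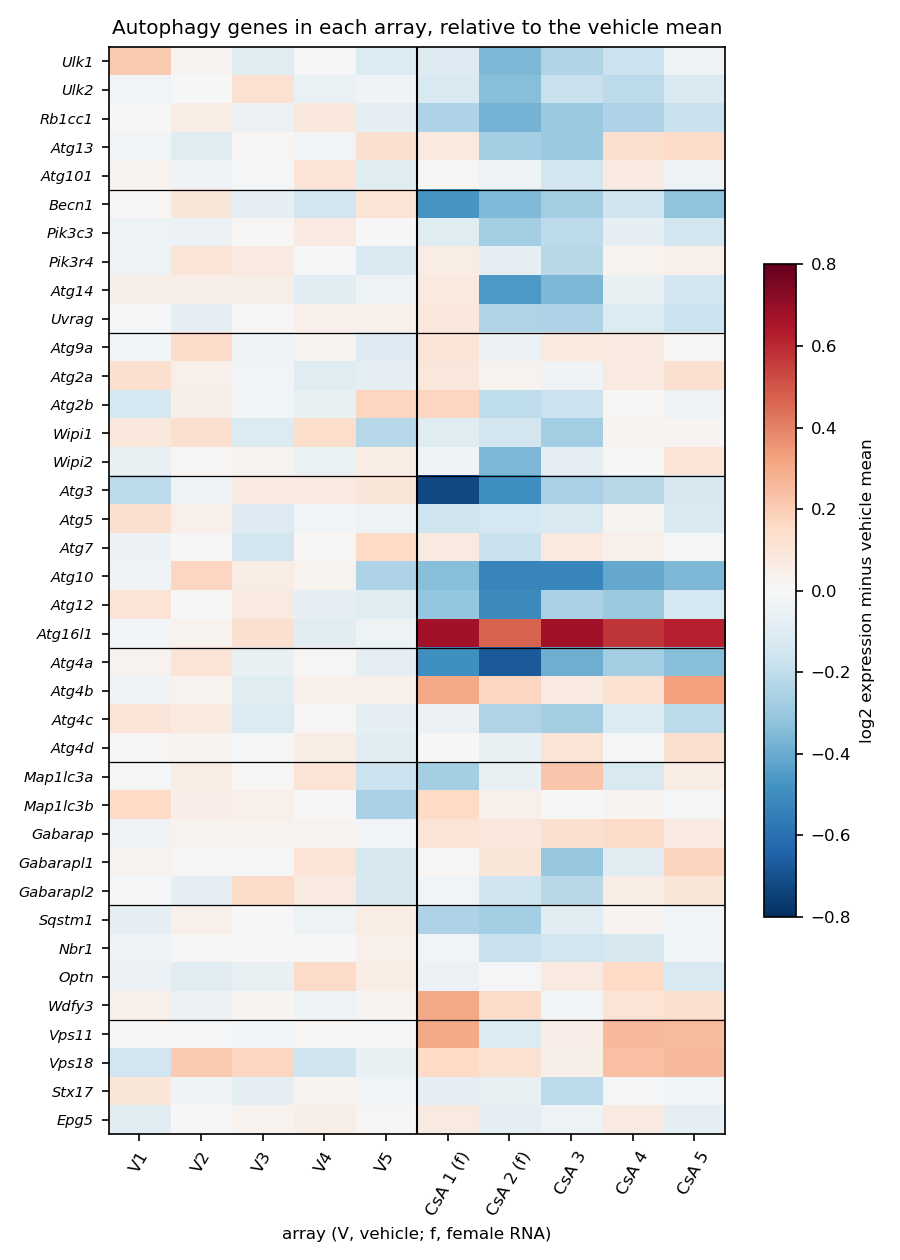
Log2 expression of the 38 autophagy genes (rows, in blocks by role) in each array (columns, vehicle left and CsA right, f marking female RNA) minus the gene's vehicle mean. Blue is lower and red higher, and Atg16l1 is the row with red in all 5 CsA arrays at around 0.60. Atg3 is darkest in CsA replicate 1, which carried female RNA.

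None of the 5 genes for membrane supply passed, and none had an unadjusted p under 0.05. Atg9a, the lipid scramblase of the vesicles that seed the membrane, differed by 0.04 ± 0.07 (SE). The lipid transfer protein genes Atg2a and Atg2b differed by 0.06 and -0.05. Wipi1 and Wipi2, readers of the phosphoinositide mark, differed by -0.10 and -0.07, with intervals from -0.30 to 0.10 and from -0.25 to 0.12. In males only the 5 differences lay between -0.08 (Wipi1) and 0.06 (Atg2a).

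The conjugation genes ranged from -0.43 to 0.60, or to 0.00 with Atg16l1 read from the dimmer of its 2 features. Atg10, the E2-like enzyme that attaches ATG12 to ATG5, measured 7.23, 7.04, 7.05, 7.16 and 7.21 in CsA and 7.54, 7.74, 7.63, 7.60 and 7.32 in vehicle replicates 1 to 5. All CsA arrays were below all vehicle arrays, of which vehicle replicate 5 came closest. The means were 7.14 ± 0.09 and 7.57 ± 0.15 (SD, n = 5 each), a difference of -0.43 ± 0.08 (SE; limma adjusted p = 0.0111). In males only it was -0.42 (limma adjusted p = 0.0481), and with centring within gene length bins added there, an alternative chosen after seeing the data, it was -0.37 (limma adjusted p = 0.0593).

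Atg12, the ubiquitin-like protein that ATG10 transfers, measured 7.71, 7.51, 7.76, 7.72 and 7.88 in CsA and 8.13, 8.02, 8.09, 7.94 and 7.92 in vehicle replicates 1 to 5. The groups did not overlap. Its difference was -0.30 ± 0.08 (SE; limma adjusted p = 0.0412), and -0.23 in males only (limma adjusted p = 0.147). Without variance moderation it missed the threshold (limma adjusted p = 0.0513). Atg12 passed without CsA replicate 5 or vehicle replicate 5 and missed the threshold in the other 8 leave-outs, with an adjusted p of at most 0.0989.

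Atg5, which receives ATG12, measured 7.54, 7.56, 7.58, 7.72 and 7.58 in CsA and 7.83, 7.74, 7.60, 7.68 and 7.66 in vehicle replicates 1 to 5. The groups overlapped through CsA replicate 4, and the difference of -0.10 ± 0.07 did not pass (limma adjusted p = 0.405; -0.07 and 0.648 in males only). Atg7, the E1-like enzyme that activates both ATG12 and the ATG8 proteins, measured 6.95, 6.70, 6.96, 6.92 and 6.87 in CsA and 6.83, 6.89, 6.73, 6.89 and 7.04 in vehicle replicates 1 to 5. The groups lay on top of each other, with a difference of 0.00 ± 0.08 and an interval from -0.17 to 0.17, and 0.04 in males only.

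Atg3, the E2-like enzyme that passes ATG8 proteins to lipid, measured 7.63, 7.86, 8.09, 8.13 and 8.22 in CsA and 8.14, 8.31, 8.42, 8.42 and 8.45 in vehicle replicates 1 to 5. The lowest arrays were CsA replicates 1 and 2, which carried female RNA, and the groups overlapped. The difference of -0.36 ± 0.11 missed the threshold (limma adjusted p = 0.0780) and was -0.20 in males only (limma adjusted p = 0.251).

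Set side by side within each array, Atg10 minus Atg7 was 0.26 ± 0.10 in CsA and 0.69 ± 0.24 in vehicle arrays (SD, n = 5 each). Atg3 minus Atg7 was 1.11 ± 0.25 and 1.47 ± 0.15, and Atg12 minus Atg5 was 0.12 ± 0.14 and 0.32 ± 0.10. The groups overlapped in all 3 of these differences, which were chosen after the values were seen and are given with no test.

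**Figure D3:**
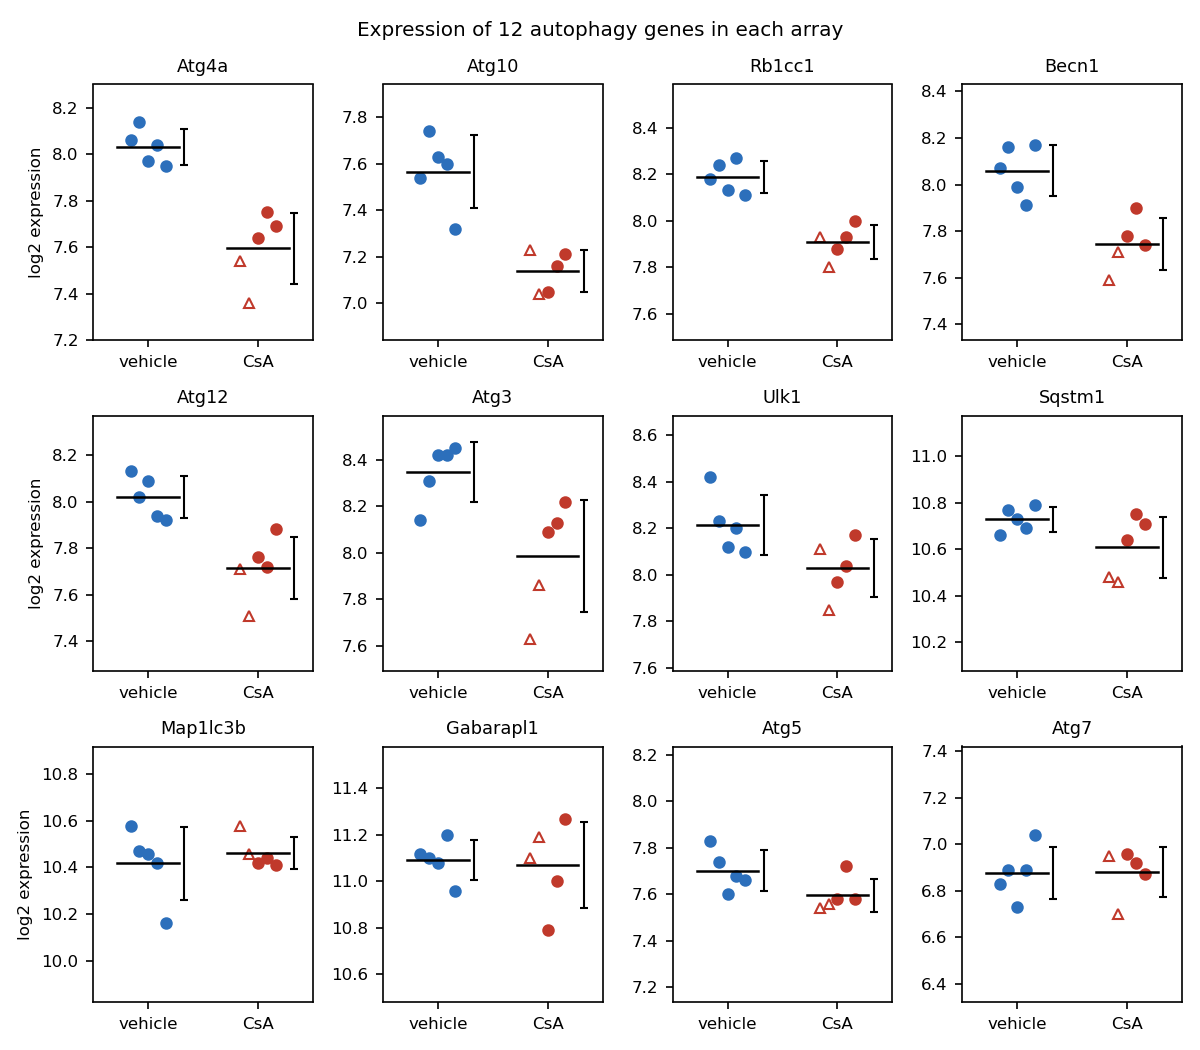
Log2 expression (vertical axis, the same span in each panel) of 12 autophagy genes in each vehicle and CsA array. Circles are arrays with male RNA and open triangles CsA replicates 1 and 2 with female RNA. Lines are means and bars 1 SD (n = 5). The top row and Atg12 show groups that do not overlap, and Atg7 shows groups at the same level.

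Atg16l1 encodes the partner of the ATG12-ATG5 conjugate that places it on the membrane. Its brighter feature, annotated to a predicted model transcript, measured 8.23, 8.03, 8.23, 8.13 and 8.18 in CsA and 7.54, 7.59, 7.69, 7.47 and 7.52 in vehicle replicates 1 to 5. All CsA arrays were far above all vehicle arrays, with a difference of 0.60 ± 0.07 (SE; limma adjusted p = 0.000627), and 0.62 in males only (limma adjusted p = 0.00534). The other feature, annotated to a curated RefSeq mRNA, averaged 6.73 ± 0.08 under CsA against 6.77 ± 0.09 under vehicle (SD, n = 5 each). There the difference was -0.04 ± 0.07 (SE, 95% interval -0.19 to 0.11; limma adjusted p = 0.816), and -0.02 in males only. The brighter feature exceeded the other by 1.43 ± 0.04 in CsA and 0.79 ± 0.07 in vehicle arrays (SD, n = 5 each), without overlap. The features therefore disagree, and a rise of the Atg16l1 mRNA is not shown by both.

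RefSeq lists a small Cajal body RNA, Scarna6, and a second guide RNA gene, Gm25395, inside Atg16l1. Scarna6, a guide for modification of spliceosomal RNA, measured 8.39, 8.46, 8.32, 8.24 and 8.18 in CsA and 7.33, 7.61, 7.55, 7.32 and 7.58 in vehicle replicates 1 to 5. It was higher in every CsA array, by 0.84 ± 0.08 (SE; limma adjusted p = 0.000329), and by 0.77 in males only. The next row of the array's table after the brighter Atg16l1 feature is Scarna6. Whether that feature reads the mRNA or RNA from within the gene was not tested, because its probe positions were not used here.

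**Figure D4:**
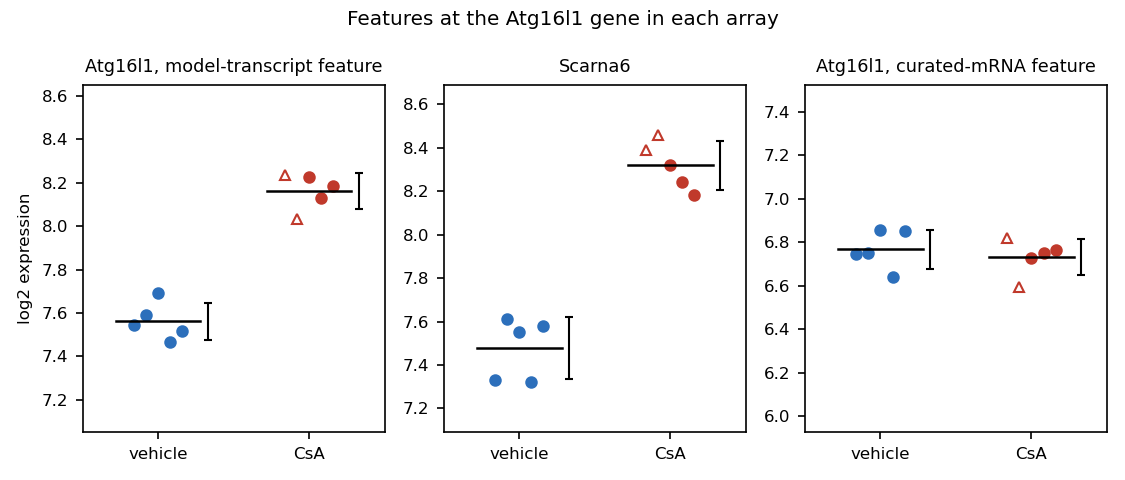
Log2 expression (vertical axis, the same span in each panel) of both Atg16l1 features and of Scarna6 in each array, with circles for male and open triangles for female RNA, lines for means and bars for 1 SD (n = 5). The model-transcript feature and Scarna6 are higher in all 5 CsA arrays, and the curated-mRNA feature is at 6.73 and 6.77.

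The ATG4 proteases trim newly made ATG8 proteins and later release them from lipid. Atg4a measured 7.54, 7.36, 7.64, 7.75 and 7.69 in CsA and 8.06, 8.14, 7.97, 8.04 and 7.95 in vehicle replicates 1 to 5. All CsA arrays lay below all vehicle arrays, and CsA replicates 1 and 2 were the lowest. The means were 7.60 ± 0.15 and 8.03 ± 0.08 (SD, n = 5 each), a difference of -0.44 ± 0.08 (SE; limma adjusted p = 0.00966), and -0.34 in males only (limma adjusted p = 0.0387). With length-bin centring in males only it was -0.29 (limma adjusted p = 0.0588). Atg4a is X-linked.

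Atg4b, the protease with the broadest activity on ATG8 proteins, measured 7.19, 7.05, 6.95, 7.00 and 7.21 in CsA and 6.85, 6.91, 6.78, 6.92 and 6.92 in vehicle replicates 1 to 5. The groups did not overlap, yet the difference of 0.20 ± 0.07 (SE) did not pass (limma adjusted p = 0.113, and 0.270 in males only). Its neighbour Thap4, within 1000 bases of it, was 0.48 ± 0.06 higher (limma adjusted p = 0.00145), and 0.46 higher in males only (0.0119). Atg4a minus Atg4b within an array was 0.52 ± 0.20 in CsA and 1.16 ± 0.08 in vehicle arrays (SD, n = 5 each), a pair also chosen after the values were seen. The groups could not overlap there, because each gene alone separated them, in opposite directions. Atg4c and Atg4d differed by -0.18 and 0.04, and by -0.20 and 0.08 in males only, none past the threshold.

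Promoter sequence was available from RefSeq (GRCm38.p6) for 2 of the genes that fell, Atg10 and Atg4a, the same pair that fell in males only, and is shown for that reason. Each window runs from 250 bases before to 50 after an annotated start, and Atg4a has 2 starts. The windows were searched on both strands for CACGTG, the core of the element bound by TFEB and its relatives, for the longer 10-base palindrome built on that core, for GTAAACA, a FoxO element, and for TGATGNAA, the core of the ATF4 element. Capitals would mark a match, and none was present in these windows:
Atg10 (chr13:91223938-91224237, minus strand): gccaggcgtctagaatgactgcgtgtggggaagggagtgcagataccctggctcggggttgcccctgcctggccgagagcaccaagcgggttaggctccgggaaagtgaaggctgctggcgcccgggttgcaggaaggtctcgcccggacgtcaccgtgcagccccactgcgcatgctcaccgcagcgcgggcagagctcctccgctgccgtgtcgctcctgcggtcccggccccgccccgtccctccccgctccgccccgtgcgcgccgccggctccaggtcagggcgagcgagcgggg
Atg4a, first start (chrX:140953595-140953894, plus strand): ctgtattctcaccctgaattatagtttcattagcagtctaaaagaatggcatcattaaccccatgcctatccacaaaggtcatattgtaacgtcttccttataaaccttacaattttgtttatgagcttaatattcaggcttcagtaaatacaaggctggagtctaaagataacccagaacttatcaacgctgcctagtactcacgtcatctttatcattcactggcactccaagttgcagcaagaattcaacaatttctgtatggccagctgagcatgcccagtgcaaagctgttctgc
Atg4a, second start (chrX:140956657-140956956, plus strand): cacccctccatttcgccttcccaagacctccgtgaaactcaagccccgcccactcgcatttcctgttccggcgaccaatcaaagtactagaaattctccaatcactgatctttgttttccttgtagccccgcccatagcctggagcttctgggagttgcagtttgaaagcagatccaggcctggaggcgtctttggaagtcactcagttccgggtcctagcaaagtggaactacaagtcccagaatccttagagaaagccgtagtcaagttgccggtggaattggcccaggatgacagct

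Windows were searched for 29 of the 38 genes, 32 windows in all. CACGTG was present in 4 of the 32 (12.5%), those of Atg3, Atg5, Atg7 and Atg14, and in 7.15% of 32851 windows genome-wide. The other motifs were in none of the 32, and in 0.33% (the 10-base palindrome), 3.65% (GTAAACA) and 3.97% (TGATGNAA) of all windows. None of the genes with CACGTG passed the test. Only 2 of the 6 genes that passed had a window searched, so this cannot show that genes that changed lack the motif.

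None of the 5 ATG8 genes passed, and none had an unadjusted p under 0.05. Map1lc3b encodes LC3B, the ATG8 protein most used as a marker of autophagosomes. It measured 10.58, 10.46, 10.42, 10.44 and 10.41 in CsA and 10.58, 10.47, 10.46, 10.42 and 10.16 in vehicle replicates 1 to 5. The groups overlapped almost wholly, with a difference of 0.04 ± 0.08 (SE) and an interval from -0.13 to 0.22 (limma adjusted p = 0.821), and 0.00 in males only. Gabarapl1, a GABARAP-family member, measured 11.10, 11.19, 10.79, 11.0 and 11.27 in CsA and 11.12, 11.10, 11.08, 11.20 and 10.96 in vehicle replicates 1 to 5. CsA arrays held both the lowest and the highest value, and the difference was -0.02 ± 0.09, and -0.07 in males only.

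Gabarap, another member of that family, lay between 11.10 and 11.18 in CsA and between 11.0 and 11.06 in vehicle arrays. The groups did not overlap, but the difference of 0.10 ± 0.05 did not pass (limma adjusted p = 0.311; 0.11 and 0.374 in males only). Map1lc3a (LC3A) and Gabarapl2 (GATE-16) differed by -0.03 and -0.05, with intervals from -0.24 to 0.17 and from -0.23 to 0.13, and by 0.06 and -0.02 in males only.

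None of the 4 cargo receptor and adaptor genes passed. Sqstm1 encodes p62, which carries ubiquitinated cargo and is itself degraded by autophagy. It measured 10.48, 10.46, 10.64, 10.75 and 10.71 in CsA and 10.66, 10.77, 10.73, 10.69 and 10.79 in vehicle replicates 1 to 5. CsA replicates 1 and 2 were the lowest, and the other CsA arrays lay among the vehicle arrays or just under them. The difference was -0.12 ± 0.07 (SE, 95% interval -0.28 to 0.04; limma adjusted p = 0.382) and -0.03 in males only. Nbr1, a relative of p62, differed by -0.10, Optn (optineurin), a receptor for mitochondria and bacteria, by 0.01, and Wdfy3 (ALFY), a large scaffold for aggregates, by 0.13. In males only these were -0.10, 0.04 and 0.07.

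None of the 4 tethering and fusion genes passed. Vps11 and Vps18, core subunits of the HOPS tether, differed by 0.15 ± 0.08 and 0.16 ± 0.09 (SE; limma adjusted p = 0.325 and 0.332), and by 0.19 and 0.18 in males only (0.197 and 0.417). Vps11 varied little among vehicle arrays, 8.11 ± 0.01 (SD, n = 5), and widely among CsA arrays, from 8.0 in replicate 2 to 8.41 in replicate 1. Stx17, the SNARE of the completed autophagosome, and Epg5, a tether on late endosomes, differed by -0.08 and -0.01, and by -0.08 and -0.02 in males only.

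Across the 38 genes, the difference was lower for genes with a longer genomic span (Spearman -0.32, n = 38 genes, which share arrays and are not independent), and across 27236 genes with a span in RefSeq the same measure was -0.12. With each array centred within 20 bins of gene length, the falls of Atg4a, Atg10, Becn1, Atg12 and Rb1cc1 were -0.40, -0.39, -0.37, -0.35 and -0.24 and all passed over all 10 arrays.

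Further genes of the pathway were read from 7 lists holding 134 names, of which 132 were measured. In these lists 8 genes rose and 17 fell, with a median of -0.01, and in males only 1 rose and 5 fell. These are 18.9% of the 132 over all arrays and 4.55% in males only, against 6.49% and 3.17% of all genes and 11.9% and 5.70% of genes above the median signal. Among 30 genes of mTORC1, the kinase complex that holds ULK1 in check, and its inputs, 1 rose and 4 fell, with a median of 0.00. Mtor, its catalytic subunit, averaged 9.11 ± 0.22 under CsA against 9.64 ± 0.04 under vehicle (SD, n = 5 each), a difference of -0.53 ± 0.10 (SE; limma adjusted p = 0.00818; -0.39 and 0.0227 in males only). Rragd, a GTPase that brings mTORC1 to the lysosome, fell by 0.45 and Fnip1, a partner of folliculin, by 0.44 on the log2 scale, and both also fell in males only. Ddit4l, an inhibitor of mTORC1, was 0.25 higher, a difference that did not pass in males only (limma adjusted p = 0.115).

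AMPK, which activates ULK1 when energy is low, had 1 gene higher and 2 lower among 8. The catalytic subunits Prkaa1 and Prkaa2 fell by 0.23 and 0.30 on the log2 scale, and the regulatory subunit Prkab1 rose by 0.32. In males only Prkab1 passed (limma adjusted p = 0.0484), and Prkaa1 and Prkaa2 did not (0.109 and 0.0594). Of 13 transcription factors that act on autophagy genes, Nr1h4 fell and Srebf2 rose. Nr1h4 encodes the bile acid receptor FXR, known in mouse liver to repress autophagy genes, and averaged 8.43 ± 0.27 under CsA against 9.25 ± 0.16 under vehicle (SD, n = 5 each), 1.76-fold lower (limma adjusted p = 0.00380, and 0.0331 in males only). Srebf2, the sterol regulator, was 0.40 ± 0.09 (SE) higher (limma adjusted p = 0.0273) and missed the threshold in males only (0.118). Tfeb and Tfe3, activators of autophagy and lysosome genes, differed by 0.05 ± 0.07 and 0.18 ± 0.08, and Foxo3 by -0.24 ± 0.16, none past the threshold. In males only Tfeb and Tfe3 differed by 0.03 and 0.18. Foxo3 differed more there, by -0.47 ± 0.12 (SE), and still missed the threshold (limma adjusted p = 0.0622). Its highest CsA array, 7.81 in replicate 1, carried female RNA.

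**Figure D5:**
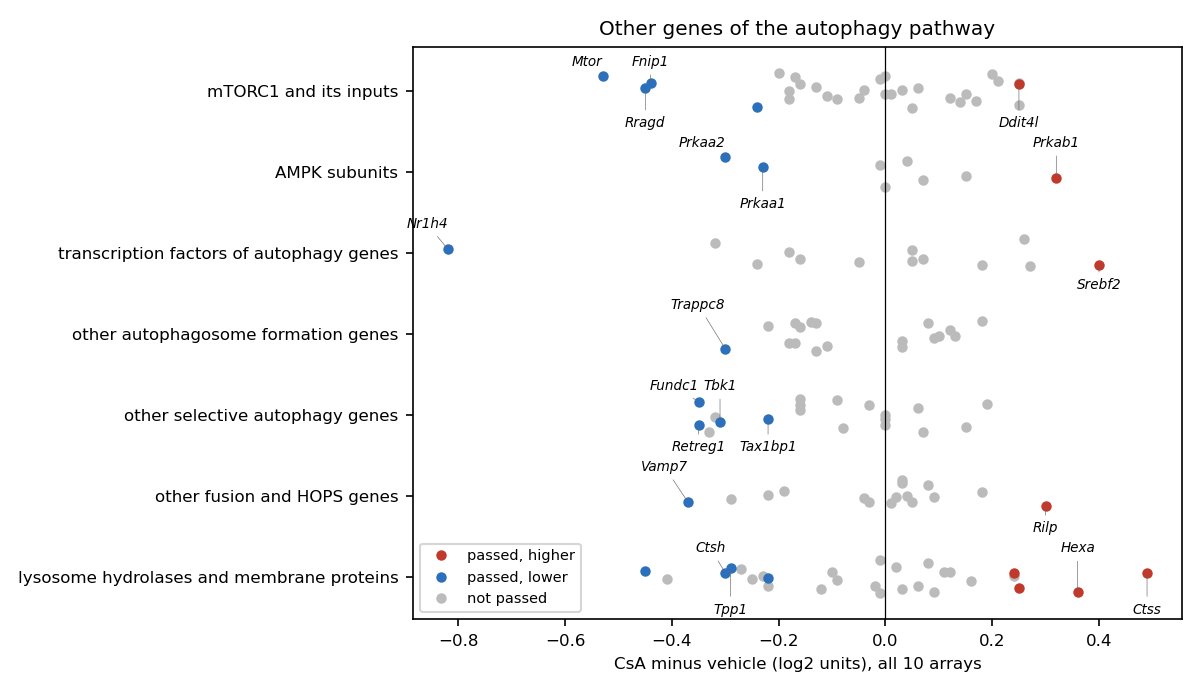
CsA minus vehicle difference in log2 units (horizontal axis, all 10 arrays) of 132 further pathway genes in 7 lists (rows). Red points passed and were higher, blue passed and were lower, grey did not pass, vertical scatter within a row has no meaning, and up to 4 passing genes a list are named. Nr1h4 lies farthest left.

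Of 18 measured genes for autophagosome formation outside the 38, Trappc8 alone passed. It encodes a subunit of the TRAPPIII complex, which acts in ATG9 traffic, and fell by 0.30 log2 units, both over all arrays and in males only (limma adjusted p = 0.0118 and 0.0441). Of 19 other selective autophagy genes 4 fell and none rose. They were Tbk1, the kinase that phosphorylates p62 and optineurin (-0.31), Tax1bp1, a cargo receptor (-0.22), Retreg1, the receptor FAM134B for endoplasmic reticulum (-0.35), and Fundc1, a receptor for mitochondria (-0.35). Without the female arrays limma called 0 of these 19 genes, against 3.17% of all genes and 5.70% of genes above the median signal. At an unadjusted p under 0.05, 9 of the 19 (47.4%) passed there, against 18.8% of all genes. That share was not computed for genes above the median signal, so it cannot be read as an excess among genes as bright. Of 16 fusion genes Vamp7, a SNARE of late endosomes, fell by 0.37 and Rilp, an effector of RAB7, rose by 0.30, and neither passed in males only.

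Lysosomal genes moved in both directions, 4 of 28 higher and 4 lower, with a median of -0.01. The protease genes Ctss and Ctsh differed by 0.49 and -0.30, the hexosaminidase gene Hexa by 0.36 and the peptidase gene Tpp1 by -0.29, all past the threshold. Ctss is also a macrophage gene. Of the 10 macrophage markers above 8 rose, and their part in the difference of Ctss was not tested. Without the female arrays limma called 0 of these 28 genes, against 3.17% of all genes and 5.70% of genes above the median signal. At an unadjusted p under 0.05, 11 of the 28 (39.3%) passed there. That share was 37.9% over all 132 genes of the lists and 18.8% of all genes, and was not computed for genes above the median signal. Of the main membrane proteins, Lamp2 fell by 0.22 (limma adjusted p = 0.0480) and Lamp1 differed by -0.01, and of the main proteases Ctsd was 0.24 higher (limma adjusted p = 0.0322) and Ctsb differed by -0.02. The other genes past the threshold were Npc2, a cholesterol carrier (0.25), and Asah1, acid ceramidase (-0.45).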

How the data were processed

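RNA from 10 kidney samples was measured on Mouse Gene ST 2.0 arrays from Affymetrix, per the labels' protocols. The authors deposited log2 expression values per feature, and RMA and Partek 6.4 are named in the submitters' processing notes, without order or settings. The genome build and annotation version are not given in the sources used here. Both deposited tables held 41345 features and the same values, so comparing results between them, as intended, was unnecessary and was left out. The number of arrays limits the precision, and detection calls and scan dates were not used here.

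Features were named by the deposited symbol, updated through RefSeq (GRCm38.p6) where outdated, and 14 symbols turned into dates or numbers were restored from the assignment text. 8874 features had no symbol. Each of 30890 genes was represented by its brightest feature, with no filter on low values. Differences, CsA minus vehicle, were fitted in R 4.3.3 using limma 3.58.1 (lmFit, eBayes, 2-sided, no covariate) with Benjamini-Hochberg adjustment over all genes at a threshold of 0.05. SE and 95% intervals use the moderated variance. The procedure was tested on simulated data in which genes varied independently and no array differed in sex. That test therefore does not cover the arrays with female RNA.

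The members and lists were chosen with earlier results of these data known. Every array's value is given for members past the threshold in either comparison and for Sqstm1, Map1lc3b, Becn1, Ulk1, Atg5, Atg7 and Gabarapl1, and up to 4 called genes per pathway list are named. Atg3, Atg14, Gabarap, Scarna6, Thap4, Atg4b, Tfeb, Tfe3, Foxo3, Lamp1, Lamp2, Ctsb, Ctsd, Npc2, Asah1 and the single markers of other cells were added to these after their values were seen. Replicate numbers follow the order of the samples and pair nothing. No sequences are shown for 3 members on chromosome 18.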

Additional observations from a re-analysis of the deposited data

Results flagged for a closer look

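Among 76 sets of 5 arrays (38 genes in each group), 2 held an array far from the other 4, by Dixon's criterion of 0.71 for 5 samples. Chance gives about 1 in 20 sets. Ulk2 was 8.18 in vehicle replicate 3, against 8.01 to 8.06 in the other vehicle arrays. Atg5 was 7.72 in CsA replicate 4, against 7.54 to 7.58 in the other CsA arrays.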

How the results depend on the processing

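The count of autophagy genes called lower, 5 over all arrays, was 2 in males only and 2 with a term for female RNA, and ranged from 2 to 4 when single arrays were left out. It was 7 with only genes above the median signal, 7 with trended robust moderation, 6 with median centring, and 4 with quantile normalization again or without moderation. It was 0 in males only with length-bin centring, an alternative added after seeing the data. The count called higher, 1, was 2 with only genes above the median signal and 2 without variance moderation. It was 0 with Atg16l1 read from its curated-mRNA feature, also added later, where its difference was -0.04. Over all genes, 2004 calls became 980 in males only, 1010 with the female term, 3284 above the median signal and 942 in males only with length-bin centring, and 1134 to 1928 when single arrays were left out. The median difference of the 38 genes stayed between -0.089 and -0.029. The filters and variance settings test other numbers of genes or spreads, and other causes were not tested. Of the single-gene results under the settings chosen at the outset, 762 kept direction and side of the threshold or were uncalled in both, 29 lost the call and 7 gained it. Under the 2 added settings 70 kept both or were uncalled in both, and 5 lost the call. The remaining result, Atg16l1, changed sign, to a difference of -0.04 that did not pass (limma adjusted p = 0.816). No paired analysis was possible because the labels carry no shared replicate numbers.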

Other observations

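Within the CsA group, Atg3 averaged 7.75 in the 2 arrays with female RNA and 8.14 in the 3 with male RNA, Sqstm1 10.47 and 10.70, and Atg4a 7.45 and 7.69. No vehicle array carried female RNA, so sex and response to CsA cannot be told apart in these values. Of 38 RefSeq genes that overlap an autophagy gene or lie within 1000 bases of one, 26 were measured and 2 were called, Scarna6 and Thap4. Over all genes tested 6.49% were called, a share near that of these 2 among 26. The measured genes next to the ones that fell were not called. Psmd10 beside Atg4a differed by -0.25, Cntd1 beside Becn1 by 0.00, Ap3s1 beside Atg12 by -0.06 and 4732440D04Rik beside Rb1cc1 by 0.16. The neighbour of Atg10 was not measured.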
